A study of Mus musculus with 10 samples.

Results

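The clustered protocadherin genes lie in 3 tandem clusters, Pcdha, Pcdhb and Pcdhg, on mouse chromosome 18, and their CpG methylation was measured in lung DNA by Methyl-seq, in which bisulfite-converted fragments are captured with a set of probes and sequenced. The windows described here were all those of the genome-wide table, 1000 bp long and set every 500 bp, that began between positions 36930000 and 37850000 of the mm10 genome. They numbered 455 of 446336 windows. The methylation level of a window in a mouse is the percentage of its CpG calls that were methylated, a call being 1 reading of 1 CpG in 1 read. A level was used where at least 20 calls stood behind it, which held in all 10 mice for 440 of the 455 windows and failed in at least 1 mouse for 15, and 0 windows failed in every mouse.

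All 10 mice were female BALB/c, 8 weeks of age when obtained. The saline group (n = 3) received saline alone, and the OVA group (n = 3) was sensitized with 50 µg of ovalbumin in alum, a model of allergic asthma, and then challenged through the nose with 25 µg. The DSE group, labelled Herb (n = 4), was given the same ovalbumin and 200 mg/kg of an extract of Descurainia sophia seeds by mouth, whereas the OVA group was given vehicle. The total depth was 306656737 to 410836272 calls per mouse. The median window of the protocadherin clusters held 1049 to 1443 calls per mouse, against 343 to 504 over all windows.

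Clustered protocadherins are cell adhesion proteins best known from neurons, where each cell uses a small set of them as a surface label that sister branches recognize. In Pcdha and Pcdhg, every gene has its own promoter and its own long variable first exon, which codes for the extracellular part, and this exon is spliced to constant exons shared by the whole cluster, which code for the end of the cytoplasmic part. Pcdhb genes have a single coding exon. Promoter choice in neurons goes with loss of CpG methylation at the chosen start site and with binding of CTCF and cohesin. The C-type genes Pcdhac1, Pcdhac2, Pcdhgc3, Pcdhgc4 and Pcdhgc5, at the far end of their clusters, are regulated apart from the rest.

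RefSeq places 58 clustered protocadherin genes here, 14 in Pcdha, 22 in Pcdhb and 22 in Pcdhg, all on the plus strand. Pcdha spans chr18:36930285-37188897, Pcdhb chr18:37264998-37521419 and Pcdhg chr18:37661775-37841873. Of the windows, 102 touched Pcdha, 140 Pcdhb and 181 Pcdhg, and 32 lay outside all spans. By position, 112 windows held a start site, 227 lay for at least 500 bp in a variable exon, 8 touched a constant exon and the rest were of none of these kinds. The start site is the beginning of the RefSeq first exon, which for 9 of the 58 genes is also the coding start, so that the promoter proper of these genes may lie further upstream.

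Most windows of the clusters were partly methylated, 82.3% of them lying between 20% and 80% against 56.0% of all windows, and the mean was lower in Pcdhg than in the other two. The mean over windows was 55.0% ± 1.73 in Pcdha, 56.2% ± 1.18 in Pcdhb and 49.0% ± 1.53 in Pcdhg (SD over mice, n = 10). Within each mouse, Pcdhb exceeded Pcdhg by 7.12 ± 1.39 percentage points and Pcdha exceeded Pcdhg by 5.94 ± 0.953 points, in 10 of 10 mice in both cases. Pcdha lay 1.18 ± 1.34 points below Pcdhb, a difference smaller than its SD that was negative in 9 of 10 mice. These are whole-lung values, so a change in the share of a cell type and a change within cells cannot be told apart. With calls pooled over windows, which gives deep windows more weight, Pcdhb stood at 63.7% and Pcdha at 52.3%.

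**Figure D1:**
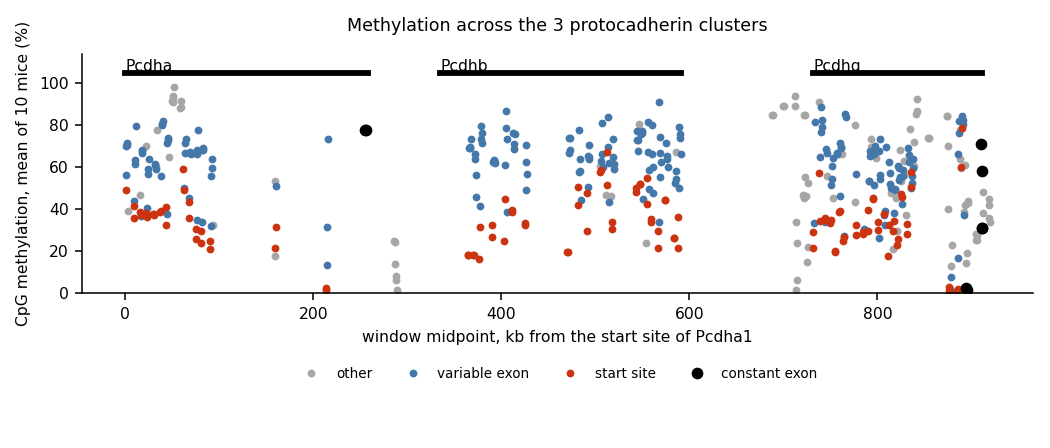
Methylation of the windows covered in all 10 mice (y axis, mean of the 10 mice in %) by distance of the window midpoint from the start site of Pcdha1 (x axis, kb), with windows coloured by position and black bars for the cluster spans. Start-site windows lay mostly below the variable exon windows of the same cluster, with means of 34.2% and 61.1%.

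The variable exons were more methylated than the start sites in front of them. Start-site windows had a mean of 34.2% ± 1.45 and variable exon windows one of 61.1% ± 1.26 (SD, n = 10), a difference within mice of 27.0 ± 0.500 percentage points that held in 10 of 10 mice. The step was 26.7 ± 1.16 points in Pcdha, 29.3 ± 0.947 points in Pcdhb and 24.0 ± 0.793 points in Pcdhg. At the start sites themselves the clusters lay closer together than over their whole length, with 33.5% ± 2.04 in Pcdha, 36.2% ± 1.65 in Pcdhb and 32.6% ± 1.58 in Pcdhg. Pcdhb start sites exceeded those of Pcdhg by 3.67 ± 1.37 points in 10 of 10 mice, Pcdha start sites lay 2.73 ± 1.96 points below those of Pcdhb in 10 of 10 mice, and they exceeded those of Pcdhg by 0.947 ± 1.69 points in 8 of 10 mice. Within Pcdhg, the start sites of the Pcdhga genes averaged 35.5% ± 1.82 and those of the Pcdhgb genes, which alternate with them, 31.3% ± 1.86, and Pcdhga was the higher in 10 of 10 mice, by 4.13 ± 1.34 points.

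**Figure D2:**
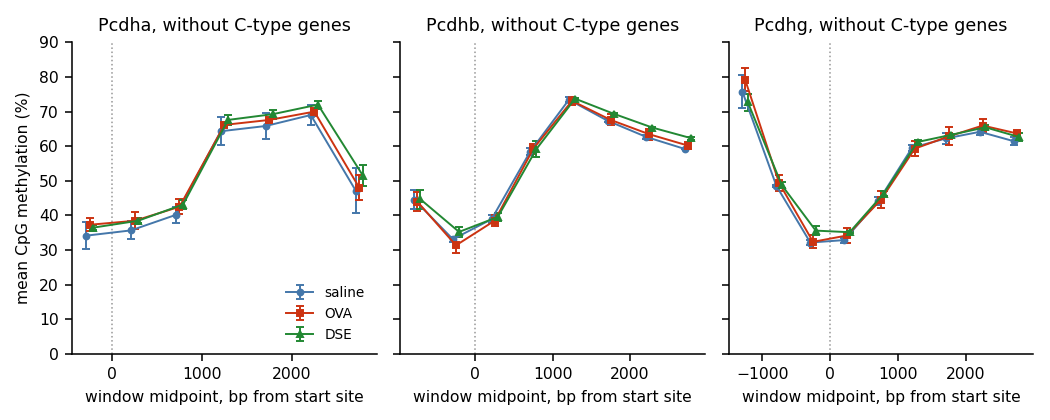
Mean methylation (y axis, %) by distance of the window midpoint from the start site (x axis, bp in steps of 500), for the genes of each cluster other than the C-type, with points for group means and bars for the SD over mice. In saline mice, Pcdhb rose from 33.1% in the 500 bp before the start site to 73.5% at 1000 to 1500 bp after it, and the lines of the 3 groups ran close together.

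The profile along the genes differed between clusters in its shape. In saline mice, Pcdhb windows centred 500 to 1000 bp past the start site were already at 58.5% ± 0.879, where Pcdha was at 40.2% ± 2.32 and Pcdhg at 44.1% ± 1.16 (SD, n = 3). Pcdhb peaked at 73.5% ± 0.774 in the next 500 bp and declined to 59.2% ± 0.103 at 2500 to 3000 bp. The Pcdhb genes behind these values numbered 12, 20 and 17 in turn, so the genes averaged changed along the profile. Pcdhg had 17 genes at 500 to 1000 bp and 11 in the next 500 bp. Pcdha climbed to 69.0% ± 2.83 at 2000 to 2500 bp and stood at 47.2% ± 6.48 in the next 500 bp, where 4 genes contributed. Upstream, windows centred 1000 to 1500 bp before a Pcdhg start site stood at 75.8% ± 4.71, but only 3 genes contributed to that value.

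Partial methylation set these start sites apart in level from most start sites of the genome. Over 32654 start-site windows of RefSeq protein-coding genes covered in all mice, the median level was 2.58% and 18% of the windows lay between 20% and 80%. Over the 112 protocadherin start-site windows the median was 33.8%, and 85.7% of them lay in that range. Start-site windows of the Hox genes, another family of clustered developmental genes, resembled the genome, with a median of 4.40% and 14.8% in the range. Taf7, which codes for a subunit of the general transcription factor TFIID and has its start site between Pcdhb and Pcdhg, was at 3.72% ± 1.19 (range over mice 2.48% to 5.97%). Protocadherin start-site windows held fewer CpGs than start-site windows of all genes, with medians of 22.5 and 51, and had a median of 1184.5 calls against 1991.

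Gene by gene, a start site had a value for 57 of the 58 genes, Pcdhb1 having no window. The gene medians ran close, at 37.5% in Pcdha, 34.5% in Pcdhb and 32.0% in Pcdhg. Of the 57 genes, 49 lay between 20% and 60%, 3 lay under 10% and 1 lay over 60%. The variable exon, over the windows covered in all mice, stood above the start site in 57 of 57 genes, with gene values from 3.06% to 78.4%. Ordered by level, 54 of the 56 neighbouring pairs differed by less than the SD of their difference over the 10 mice, so the order is a gradient with 2 breaks. The breaks lay between Pcdhac2 and Pcdhb3 (15.9 ± 2.20 points) and between Pcdhb13 and Pcdhgc5 (9.97 ± 7.72 points).

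**Figure D3:**
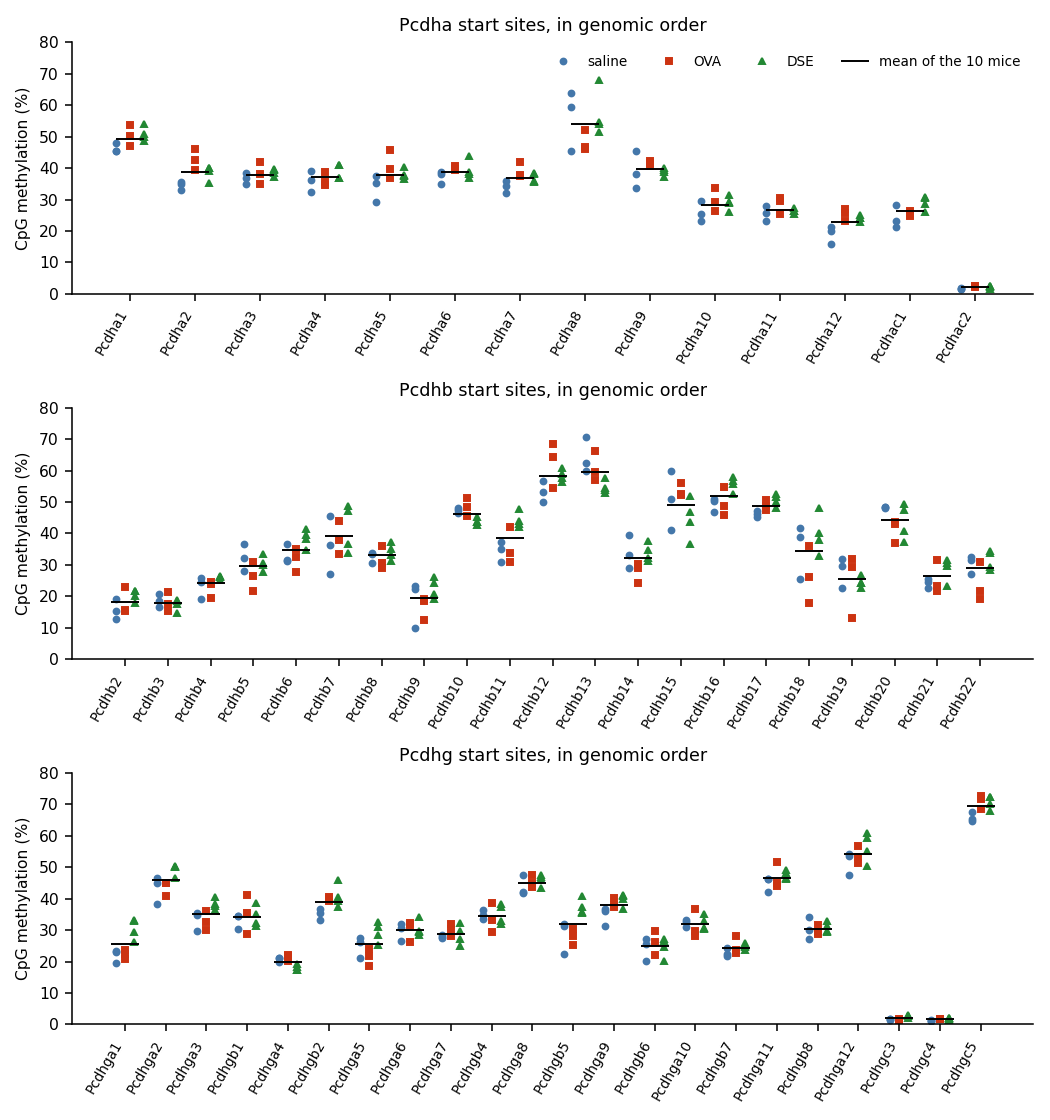
Start-site methylation of each gene (y axis, %) in genomic order (x axis) for the 3 clusters, with a point for each mouse coloured by group and a black dash for the mean of the 10 mice. Pcdhac2, Pcdhgc3 and Pcdhgc4 lay near 2% in every mouse and Pcdhgc5 at 64.7% to 72.7%, while most other genes lay between 20% and 60%.

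In Pcdha, the most methylated start sites were those of Pcdha8, Pcdha1 and Pcdha9. Pcdha8 averaged 54.2% ± 7.60 and had the largest SD between mice in the cluster, with values from 45.5% to 68.0%. Pcdha1, the first gene of the cluster, stood at 49.3% ± 3.05 and Pcdha9 at 39.8% ± 3.16. The lowest were Pcdhac2 at 2.02% ± 0.406, Pcdha12 at 22.9% ± 3.22 and Pcdhac1 at 26.5% ± 3.11. Over the 12 genes Pcdha1 to Pcdha12, the level tended to be lower toward the constant exons (Pearson r = -0.54, Spearman rho = -0.54 across genes with their position, a description over neighbouring genes of the same libraries). The corresponding rho was 0.32 over 21 Pcdhb genes and 0.14 over 19 Pcdhg genes.

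In Pcdhb, the highest start sites were Pcdhb13 at 59.4% ± 5.73, Pcdhb12 at 58.1% ± 5.38 and Pcdhb16 at 52.0% ± 4.20. Pcdhb12 and Pcdhb13 are neighbours in the middle of the cluster. The lowest were Pcdhb3 at 18% ± 2.14, Pcdhb2 at 18.2% ± 3.38 and Pcdhb9 at 19.6% ± 5.08. Pcdhb9 had 4.5 CpGs per start-site window on average and thin coverage, so its value was among the less precise. Their exons were at 58.2% ± 3.76, 70.3% ± 2.15 and 70.7% ± 1.72, levels like those of the other Pcdhb exons, which ran from 54.9% to 73.1%.

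In Pcdhg, the highest were Pcdhgc5 at 69.4% ± 2.96, Pcdhga12 at 54.2% ± 4.02 and Pcdhga11 at 46.6% ± 2.66. Pcdhga11 and Pcdhga12 are the last of the Pcdhga genes. The lowest were Pcdhgc4 at 1.6% ± 0.312, Pcdhgc3 at 1.95% ± 0.587 and Pcdhga4 at 19.9% ± 1.75. In Pcdhga12 the step from start site to variable exon was small, since the exon was at 56.4% ± 2.31, and in Pcdhga7 the exon, at 30.6% ± 4.27 from 1 covered window, was near its start site at 28.8% ± 2.26. Further windows of that exon, too thinly covered to enter the mean, stood far higher, at 89.4%.

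The C-type genes did not share one level. Pcdhac2 was at 1.53%, 1.89% and 1.40% in saline mice, 2.08%, 2.32% and 2.32% in OVA mice and 1.53%, 2.47%, 2.44% and 2.22% in DSE mice. Pcdhgc4 was likewise at 1.00% to 1.94% in the 10 mice and Pcdhgc3 at 1.28% to 3.09%. Pcdhac1 lay at 21.2% to 30.8%, inside the range of the other Pcdha genes, and Pcdhgc5 at 64.7% to 72.7%, above every other gene in the mean. As a class, C-type start-site windows averaged 20.3% ± 1.22 and the other start-site windows 35.5% ± 1.51, a difference within mice of -15.2 ± 1.14 points, and C-type variable exon windows lay 18.2 ± 0.883 points below the other variable exons, at 44.3% against 62.5%. Both differences had the same sign in 10 of 10 mice, and with windows assigned by their midpoint they were -18.7 and -19.3 points.

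The exons of the C-type genes also parted ways. The variable exon of Pcdhgc3 stood at 3.06% ± 0.921 over 4 windows, the lowest of the 57 genes, so that low methylation there ran from the start site through the exon. Pcdhgc4, with an equally low start site, had an exon at 60.4% ± 2.41, and Pcdhac2 had one at 39.5% ± 2.33. Pcdhac1 stood at 51.3% ± 7.23 from 1 covered window, and Pcdhgc5 at 71.3% ± 2.36, only slightly above its start site.

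The constant exons were covered unevenly, and the windows of the 2 clusters that have them lay on unlike parts. Windows lay on 1 of the 3 constant exons of Pcdha and on 2 of the 3 of Pcdhg. The last Pcdha constant exon (chr18:37184946-37188897, shared by 14 genes) was at 77.8% and 77.9% in its 2 windows, both over its first part. The first Pcdhg constant exon (chr18:37825021-37825079, shared by 22 genes) lay in 2 windows at 1.32% and 2.43%, and the last one (chr18:37839903-37841873), which also holds the untranslated end of the transcript, in 4 windows on or across it that ranged from 31.2% to 71.3%. The mean was 77.9% ± 3.10 for Pcdha and 32.6% ± 3.78 for Pcdhg, 45.2 ± 5.38 points apart in 10 of 10 mice. These means do not cover like exons, since that of Pcdha rests on its last constant exon alone. The highest Pcdhg window, in the first part of the last Pcdhg constant exon, stood at 71.3%. The Pcdhg mean depended on which windows counted, being 53.6% with windows assigned by midpoint and 22% with calls pooled, so the values by exon describe it better.

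At the start sites of Pcdha and Pcdhg, the negative relation of CpG number to the level was nearly gone without the C-type genes. The median window held 26 CpGs against 13 over all windows. Across the 440 covered windows, which share libraries and overlap in pairs, CpG number and mean methylation had r = 0.01 and rho = 0.06. Across the 57 gene start sites r was -0.37 and rho -0.17, and without the C-type genes (52 genes) r was 0.02 and rho 0.01. By cluster, r was -0.68 and rho -0.39 in Pcdha, -0.55 and -0.38 in Pcdhg and 0.29 and 0.21 in Pcdhb, and without the C-type genes r was 0.05 in Pcdha and -0.10 in Pcdhg. The 3 start sites under 10% were among the CpG-rich ones, with 72.5 CpGs per window at Pcdhac2, 59 at Pcdhgc3 and 45.5 at Pcdhgc4.

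The spread between mice was close to that of other windows of like level. Over windows at 20% to 80%, the median SD within groups was 3.08 percentage points for 362 protocadherin windows and 3.68 points for 236210 windows of the whole table, of which the former were deeper. Among windows with a median of at least 1000 calls the order turned, with 2.61 points for 216 protocadherin windows and 2.41 points for 43805 windows in all. These 2 sets were not of like depth either, with medians of 3560.5 and 1465.5 calls.

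Group differences in the cluster means were small, a few percentage points at most. Pcdha averaged 53.5% ± 2.51 in saline, 55.0% ± 1.02 in OVA and 56.1% ± 0.529 in DSE mice. Pcdhb averaged 55.5% ± 0.376, 55.5% ± 1.5 and 57.1% ± 0.631. Pcdhg averaged 47.4% ± 1.15, 49.6% ± 1.70 and 49.9% ± 0.548. In each of the 3 clusters the saline and OVA mice overlapped and the OVA and DSE mice overlapped, whereas the DSE mice all lay above the saline mice. The DSE minus saline differences of the means were 2.57, 1.61 and 2.47 points, which were not tested as means over chosen windows. Leaving out 1 mouse at a time gave 1.13 to 3.41 points for Pcdha, the lowest without saline mouse 2, and 1.38 to 1.86 and 1.81 to 2.83 points for Pcdhb and Pcdhg. Over single windows, the median difference between DSE and saline was 1.96 points in the clusters and 0.721 points over all windows, and it was positive in 345 of 453 protocadherin windows (76.2%) against 61.3% of all windows. For OVA minus saline the medians were 0.863 and 0.732 points, with 63.4% and 60.8% positive. For DSE minus OVA they were 0.799 and -0.0354 points, with 63.9% and 49.1% positive. All windows are not a reference of like level, since 56.0% of them lay between 20% and 80%, against 82.3% in the clusters.

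Differentially methylated windows were taken at an adjusted p under 0.01 in a likelihood ratio test of the calls, adjusted over all windows tested, with a pooled difference of at least 10 percentage points. That test treats every call as its own observation and takes no account of how mice of a group vary. For this reason limma, which uses the mice as replicates, was run on the log2 ratio of methylated to unmethylated calls (M-value, pseudocount 1). The 3 comparisons share mice with each other, so their results are not independent of one another.

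In OVA vs. saline, hyper methylated windows in the clusters were gathered around the Pcdhg constant exons. Of 453 windows tested, 16 were hyper methylated (3.53%) and 1 was hypo methylated. Over all 436201 windows 4.75% were hyper methylated and 2.56% hypo methylated, so the clusters had a share below the background. The 16 hyper methylated windows were thinly covered, with a median of 266.5 calls per window and mouse in saline and 263 in OVA mice. Over all windows of the clusters these medians were 1160 and 1217. The part of the thin coverage in these calls was not tested. By cluster, 13 of 181 windows tested were hyper methylated in Pcdhg (7.18%), and 1 window each in Pcdha and Pcdhb. Of the 17, 12 lay among the 20 windows from position 37824001 onward, a stretch marked off after the values were seen, in which neighbouring windows share calls. These 12 formed chr18:37824001-37825000, chr18:37825501-37827500, chr18:37834501-37837000 and chr18:37840001-37843000. They lie before the first constant exon, in the intron after it, in the intron before the last constant exon, and on that exon and past its end.

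The window chr18:37835501-37836500, in the intron before the last constant exon, was at 11.7%, 12.2% and 18.5% in saline mice, 26.2%, 34.5% and 30.2% in OVA mice and 25.9%, 32.1%, 32.2% and 29.5% in DSE mice. Every mouse given ovalbumin lay above every saline mouse. The pooled OVA minus saline difference was 15.8 points, the M-value difference 1.41 and the limma adjusted p 0.103, and the exact two-sided permutation p was 0.1, which is the least possible with 3 mice a group. That permutation p is not adjusted and adds no support, since the window was picked for its large difference. The window after it, chr18:37836001-37837000, was at 18.9%, 13.7% and 15.9% in saline, 28.4%, 39.0% and 26.7% in OVA and 36.0%, 31.4%, 32.9% and 36.5% in DSE mice, with an OVA minus saline difference of 15 points (limma adjusted p = 0.111).

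Across the end of the last constant exon, with its greater part past the exon, the window chr18:37841501-37842500, which rests on 1854 to 2746 calls per mouse, was at 22.8%, 21.5% and 22.9% in saline, 37.1%, 33.6% and 33.8% in OVA and 29.0%, 35.6%, 38.0% and 38.0% in DSE mice. The groups of saline and OVA mice did not overlap, and the difference was 12.3 points (limma adjusted p = 0.103). In the first part of the same exon, chr18:37840001-37841000 was at 69.8%, 58.0% and 67.0% in saline and 81.4%, 79.6% and 75.3% in OVA mice, a difference of 13.9 points (limma adjusted p = 0.128). DSE mice were at 70.8%, 63.1%, 76.0% and 71.8% there, between the other groups and overlapping with both. In contrast, the windows over the first constant exon lay at 0.939% to 3.28% in all mice.

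**Figure D4:**
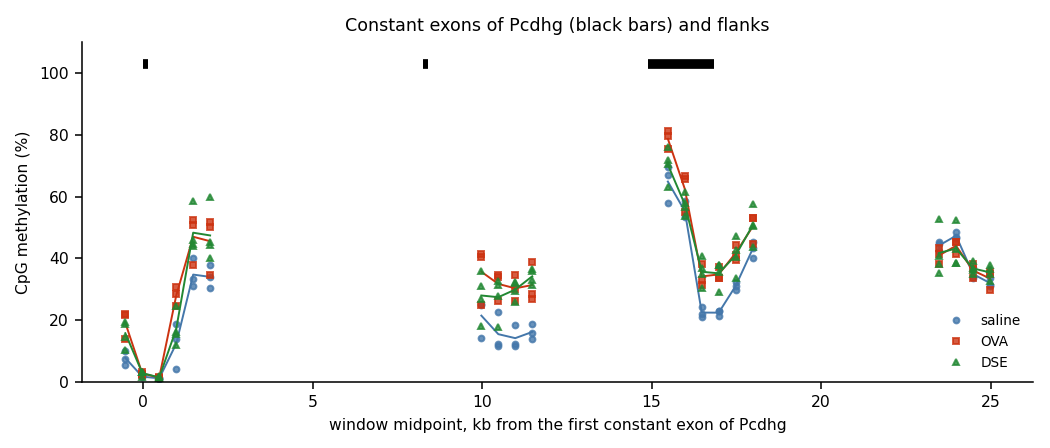
Methylation of each mouse (y axis, %) by distance of the window midpoint from the first Pcdhg constant exon (x axis, kb), with lines through the group means of adjoining windows and black bars for the constant exons. The saline mice lay lowest in the intron before the last exon, at 11.7% to 18.5% in the window 15.8 points higher in OVA.

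The other windows among the 10 called ones with the largest OVA vs. saline difference lay in the same introns or exon, except chr18:37809001-37810000, just past the Pcdhgc3 variable exon. That window was at 14.7%, 14.8% and 18.3% in saline and 33.2%, 21.8% and 34.9% in OVA mice (13.7 points, limma adjusted p = 0.126). Among start sites, Pcdha2 (10.5 points) and Pcdhb12 (10.5 points) were hyper methylated and Pcdha8 (-10.9 points) was hypo methylated by the likelihood ratio test, though the saline and OVA mice overlapped at Pcdhb12 and Pcdha8. These 3 calls made up 2.68% of the 112 start-site windows, near the 2.38% called among the start-site windows of all genes. The limma test called 0 of the 453 windows at an adjusted p under 0.05, and likewise 0 of all windows, that is 0% of them. At an unadjusted p under 0.05 limma had 33 of the 453 windows against 19.2% of all windows, and an F test that allows for overdispersion had 35 and called 0.

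In DSE vs. OVA, the hyper methylated windows of the clusters were start-site windows throughout. Of 452 windows tested, 9 were hyper methylated (1.99%) and 3 hypo methylated, against 0.898% and 0.725% of all 437460 windows. The 9 made up 8.04% of the 112 start-site windows, where 0.612% of the start-site windows of all genes were hyper methylated and 2.24% of those with a mean level of 20% to 80%. They belonged to Pcdha8, Pcdhb11, Pcdhb18 (2 windows that overlap), Pcdhb22, Pcdhga1, Pcdhga3, Pcdhga5 and Pcdhgb5. All of these code for variable protocadherin isoforms, and none is a C-type gene. Limma called 0 of the 452 windows and 0.0894% of all windows. At an unadjusted p under 0.05 it had 37 of the 452, where it had 9.66% of all windows, and the F test also had 37 and called 0.

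Depth moved together with this result. In 9 of the 9 hyper methylated windows every DSE mouse had more calls than every OVA mouse, which was the case in 33.9% of the 112 start-site windows and 19.0% of all windows of the clusters and 24.9% of all windows of the table. Among the start-site windows of all genes it was 4.18%. The median was 472.5 calls per window and mouse in DSE, 179 in OVA and 204 in saline mice, whereas over all windows of the clusters it was 1309, 1217 and 1160. Over the 38 start-site windows in which every DSE mouse was deeper, the median DSE minus OVA difference was 4.06 points and 30 were positive. Over the other 74 it was 0.0193 points, 37 were positive and 0 were called. The 38 windows also held fewer CpGs than the 74, with medians of 14 and 31, and fewer calls, with medians of 582 and 1661.5. The part of this depth gap in the differences was not tested.

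The largest difference was at the start site of Pcdhga1, the first gene of Pcdhg (chr18:37661001-37662000). This window was at 15.7%, 10.4% and 18.9% in saline, 12.2%, 15.6% and 18% in OVA and 35.4%, 29.0%, 35.5% and 26.7% in DSE mice. Every DSE mouse lay above every other mouse, by a pooled 16.8 points over OVA (M-value difference 1.36, limma adjusted p = 0.0886, exact two-sided permutation p = 0.0286, the least possible with 3 and 4 mice). The window was picked for the largest called difference, so its permutation p, which is not adjusted, adds no support of its own. The calls numbered 754 to 968 in DSE mice and 306 to 531 in OVA mice.

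Pcdhb11 (chr18:37420501-37421500) had the same order, with 24.4%, 25% and 29.2% in saline, 21.6%, 27.4% and 21.8% in OVA and 40.0%, 33.7%, 40.2% and 33.5% in DSE mice (13.3 points over OVA, limma adjusted p = 0.150). At Pcdhb22 (chr18:37517501-37518500) the OVA mice stood low, at 6.0%, 19.9% and 8.14%, against 25.9%, 20.9% and 22.5% in saline and 31.1%, 23.6%, 26.4% and 28.9% in DSE mice. The pooled difference there was 14.9 points (limma adjusted p = 0.203), with 86 to 176 calls in OVA mice and 381 to 761 in DSE mice. Pcdhga5 was at 15.1%, 19.1% and 19.6% in OVA and 34.0%, 27.5%, 33.4% and 25.1% in DSE mice, and Pcdhgb5 at 26.1%, 30.7% and 31.9% and at 39.8%, 38.1%, 45.2% and 38.4%, with differences of 11.8 and 11.1 points. In both genes the saline mice, at 18.5% to 28.2% and 22.7% to 34.5%, overlapped with the OVA mice, and at Pcdhga5 also with the DSE mice.

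As at the start sites above, limma called 0 windows at the remaining ones, where groups overlapped or lay close, or calls were few. Pcdhb18 differed by 15.1 and 13.9 points in its 2 windows, but the OVA and DSE mice overlapped and the OVA values rested on as few as 46 calls. Pcdhga3 differed by 11.5 points with as few as 47 calls. Pcdha8, outside the 10 called windows with the largest differences and added since it was also hypo methylated in OVA vs. saline, was at 69.1%, 50.6% and 65.6% in saline, 50.4%, 48.6% and 56.3% in OVA and 60.5%, 56.6%, 72.7% and 60.8% in DSE mice. The pooled DSE minus OVA difference there was 10.7 points (limma adjusted p = 0.466). The lowest DSE mouse lay just above the highest OVA mouse, at 56.6% and 56.3%, and the saline mice overlapped with both groups.

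**Figure D5:**
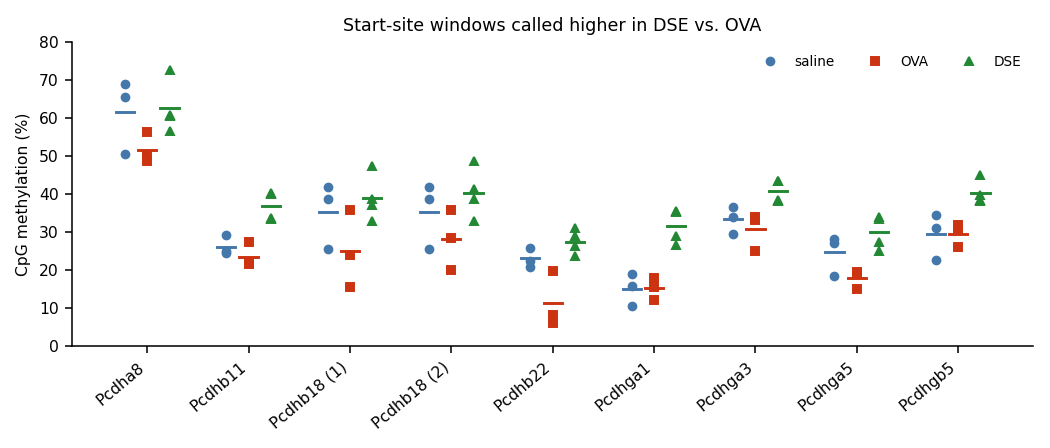
Methylation of each mouse (y axis, %) in the 9 start-site windows hyper methylated in DSE vs. OVA (x axis, by gene, numbered where a gene has 2 windows), with bars for the group means. At Pcdhga1 the 4 DSE mice sat at 26.7% to 35.5% and all other mice at 18.9% or below, whereas at Pcdhb18 the groups overlapped.

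The 3 hypo methylated windows were 2 overlapping windows in the Pcdhga7 variable exon, which held identical calls, and chr18:37825501-37826500 after the first Pcdhg constant exon. At Pcdhga7 the percentages were 100% and 96.3% in 2 OVA mice and 89.7%, 75% and 85.7% in 3 DSE mice, since OVA mouse 1 and DSE mouse 3 had too few calls, and no mouse had more than 75 (limma adjusted p = 0.254, exact permutation p = 0.2). At chr18:37825501-37826500 OVA mice were at 24.7%, 30.6% and 28.4% and DSE mice at 24.6%, 12%, 15.5% and 16.3%, a difference of -10.0 points (limma adjusted p = 0.306).

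In DSE vs. saline, the likelihood ratio test and limma both called a smaller share of windows in the clusters than in the whole table. Of the 12 windows called by the likelihood ratio test, 7 lay among the 20 windows of the stretch around the Pcdhg constant exons. Of 453 windows tested, 11 were hyper methylated (2.43%) and 1 was hypo methylated, against 4.95% and 3.07% of all 440215 windows. Limma called 7 of the 453 windows, all higher in DSE, where it called 4.59% of all windows. The count of 12 by the likelihood ratio test became 24 without saline mouse 3 and 7 without DSE mouse 3. In this comparison 3 of the 11 hyper methylated windows had more calls in every DSE mouse than in every saline mouse, against 14.8% of the windows of the clusters.

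Around the constant exons, chr18:37836001-37837000 differed by 18 points (limma adjusted p = 0.0252), chr18:37835501-37836500 by 15.4 points (0.0291 in the same test), chr18:37841001-37842000 by 12.9 points (0.0387) and chr18:37841501-37842500 by 12.3 points (0.0390). In these 4 windows no DSE mouse overlapped with a saline mouse. The Pcdhga1 start site differed by 16.4 points (limma adjusted p = 0.0362). The other 2 windows called by limma, named here because they complete the 7, fell short of 10 points: the Pcdhgc3 start site by 1.82 points at a mean level of 2.94%, and a Pcdhb4 variable exon window by 8.75 points at 73.7%. At Pcdhgc3 the saline mice were at 2.22%, 2.52% and 2.10%, the OVA mice at 1.99%, 2.35% and 1.68% and the DSE mice at 3.90%, 3.34%, 5.16% and 4.14%, so that every DSE mouse lay above every other mouse.

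Past 10 points but not called by limma were Pcdhgb5 and Pcdhb11 at their start sites (10.7 and 10.3 points), 3 intron windows near the constant exons (11.2 to 12.5 points) and a window in the Pcdhb17 exon. Pcdhb17 (chr18:37487001-37488000) had 4330 to 6754 calls per mouse and stood at 42%, 44.4% and 44.0% in saline, 45.3%, 52.0% and 51.2% in OVA and 60.8%, 50.4%, 49.7% and 57.5% in DSE mice (11.7 points over saline, limma adjusted p = 0.0949). The hypo methylated window was at the start site of Pcdhb13 (chr18:37442501-37443500), at 78.5%, 71.0% and 66.6% in saline and 64.3%, 61.9%, 59.6% and 61.5% in DSE mice (-10.0 points, limma adjusted p = 0.108).

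Genes that act on or with the clustered protocadherins mostly had low methylation at their start sites. The list of CTCF and cohesin genes had 10 of 10 genes with windows, at 0.723% to 29.2% with a median of 0.990%, and the upper end was held by Stag2 and Smc1a, which are X-linked. The list of silencing genes (Dnmt1, Dnmt3a, Dnmt3b, Smchd1, Setdb1 and Uhrf1) ranged from 0.787% to 12.1%, with Dnmt3b the highest, and the kinases tied to the cytoplasmic part (Ptk2, Ptk2b, Fyn and Ret) from 0.787% to 27.0%. The non-clustered protocadherins, single genes outside the 3 clusters, had windows for 9 of 12 genes, at 0.990% to 35.0% with a median of 2.45%. The 4 lists had 23, 15, 10 and 17 start-site windows, all of them tested. By the likelihood ratio test 0 of these were called between OVA and saline mice, against 2.38% of the start-site windows of all genes, and 0 between DSE and OVA mice, against 0.698%. Differences short of a call reached -7.24 points at Ptk2b and 7.10 points at Dnmt3a in DSE vs. OVA. In OVA vs. saline they reached -6.56 points at Stag2. In DSE vs. saline 1 window was called, at Ptk2b (-10.5 points), against 2.82% of the start-site windows of all genes. Limma called 1 window each at Pds5a (1.17 points) and Pcdh8 (2.64 points) in that comparison, against 1313 of the 32816 start-site windows of all genes. The lists are too short for such counts to stand apart from the background.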

How the data were processed

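Whole-lung DNA of 3 saline, 3 OVA and 4 DSE-treated mice was captured with SureSelect Methyl-Seq probes, bisulfite-converted and sequenced. The authors trimmed and aligned reads to mm10 and deposited counts of methylated and of all CpG calls per window and mouse, and 0 deposited windows had fewer than 10 calls in a mouse. Per the labels, the submitters' processing notes name cutadapt 1.10, Bismark 0.19.0 and methylKit 1.0.0. Replicate mice differed by more than counting error, so each was kept as 1 replicate, and calls from 1 fragment are not independent, so the tests of calls cover counting error only.

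From the deposited counts, levels, likelihood ratio tests of a logistic model and F tests were computed in Python 3.11.15 with scipy 1.17.1, needing 20 calls per mouse and 2 mice per group, and limma 3.58.1 was run in R 4.3.3. P-values were adjusted by the Benjamini-Hochberg method over all windows, and the code was tested on simulated data. Positions and CpG numbers come from RefSeq on GRCm38. Named were the C-type genes, the 3 highest and 3 lowest start sites of each cluster and up to 10 called windows per comparison with the largest differences. The windows, lists and tests were chosen with earlier results of these data known. Nearly identical copies among protocadherin exons can leave reads unaligned or misplaced. Minimum calls, weighting, window choice, overdispersion, the replicate block and single mice were varied.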

Additional observations from a re-analysis of the deposited data

Results flagged for a closer look

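In the DSE group of 4 mice, the gap of the most distant mouse to its nearest neighbour was set against the whole range of the group for 47 reported values, and 3 passed the 95% critical value of Dixon's ratio, where chance alone flags about 1 in 20. For the Pcdhg mean, 1 mouse lay at 49.1% and the others at 50.1% to 50.2%, a gap small in percentage points. For the Pcdha constant exon windows, 1 mouse lay at 74.3% and the others at 79.9% to 80.9%. For the window chr18:37826001-37827000, 1 mouse lay at 58.7% and the others at 44.1% to 45.8%.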

How the results depend on the processing

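With calls pooled over windows the means were 52.3% for Pcdha, 63.7% for Pcdhb, 28.0% for constant exon windows, 22% for those of Pcdhg and 50.4% for the remaining windows, and the differences of cluster means were 0.137 points (Pcdha, DSE vs. OVA), 1.13 points (Pcdhb, OVA vs. saline) and 0.533 points (Pcdhb, DSE vs. OVA). With windows assigned by midpoint, variable exons were at 58.8%, constant exons at 63.3%, those of Pcdhg at 53.6% and the remaining windows at 47.7%, and the C-type differences were -19.3 points in exons and -18.7 at start sites. The numbers of called windows, 17 for OVA against saline, 12 for DSE against OVA and 12 for DSE against saline, were 0 in all 3 comparisons with the F test, with limma at an adjusted p under 0.01 and with a minimum of 20 points. Limma at 0.05 gave 0, 0 and 7, and every other window gave 9, 4 and 7, with fewer windows tested. Leaving out 1 mouse at a time gave 14 to 21, 9 to 18 and 7 to 24 calls, with 24 lacking saline mouse 3 and 7 lacking DSE mouse 3. The ratio of the spread between mice in the clusters to that of all windows was 0.836, 0.823 with M-values and 1.08 over windows with a median of at least 1000 calls, a choice made after seeing the data.

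The labels number the mice alike in each group, but same-numbered mice did not deviate together (correlations of -0.0273 to 0.0785 over all windows and -0.0341 to 0.19 in the clusters), so the number was not taken as a pairing. With the replicate block, the likelihood ratio test called 17, 10 and 12 windows and limma 0, 0 and 0.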
